A study of Homo sapiens with 4 samples.

Results

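The interleukin-1 family is described here through 8 genes, the ligands IL1A, IL1B, IL18 and IL33, the antagonist IL1RN and the receptor subunits IL1R1, IL1RAP and IL1RL1, in KP4 cells, a human pancreatic ductal adenocarcinoma line. The genes were chosen by name, as rows of the deposited count table, out of 60651 genes. Higher counts of IL1A, IL1B and IL1RL1 under FOLFIRINOX in these same libraries were known when the 8 genes were selected. The genes were thus selected on the contrasts of drug with vehicle, and their values in those contrasts are given as a description, without p-values. RNA sequencing covered 4 groups, with 3 numbered libraries each. These were E5 cells given FOLFIRINOX for 96 h, E5 cells given vehicle (DMSO) for 96 h, control cells given FOLFIRINOX for 96 h and control cells given vehicle for 96 h. FOLFIRINOX here combined 5 µM oxaliplatin, 10 µM of a component labelled 5-F, and SN-38, to which irinotecan is converted in the body, at 25 nM. By its title the study takes the E5 cells as drug resistant, and the design text describes 5 treatment cycles with vehicle or drug, so what the E5 cells given vehicle met before the last 96 h is not settled here. Whether E5 is a single clone, and whether the 3 libraries of a group came from separate cultures, is not stated in the labels, so the spread between libraries may be technical.

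Interleukin-1 alpha and beta are secreted or released cytokines that start inflammation through the same receptor, formed by IL1R1 and the shared subunit IL1RAP. Signalling runs through the adaptor MYD88 and the IRAK kinases to NF-kB and MAP kinases, and it turns on chemokines and survival genes. IL1RN is a ligand that binds IL1R1 without a signal, IL33 signals through IL1RL1 (also known as ST2) with IL1RAP, and IL18 has a receptor pair of its own. Interleukin-1 beta and interleukin-18 are made as precursors that the protease caspase-1 cuts, and in pancreatic tumours interleukin-1 is known as a signal from tumour cells to fibroblasts.

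Gene reads numbered between 7359034 and 21775030 per library, and levels are given as CPM, gene reads scaled to library size with TMM factors. The labelled pancreatic cancer identity was checked against 6 epithelial markers, whose summed level ranged from 766 to 870 CPM in E5 FOLFIRINOX, 739 to 823 CPM in E5 vehicle, 414 to 457 CPM in control FOLFIRINOX and 194 to 229 CPM in control vehicle libraries. Almost all of it was KRT8 and KRT18, while EPCAM averaged 0.444, 0.291, 1.20 and 0.598 CPM in these groups. KRT19 averaged 1.79, 4.37, 0.239 and 1.10 CPM and CDH1 0.490, 1.92, 0.304 and 1.22 CPM. Both were thus lower under FOLFIRINOX in each kind of cell. KRT7, at 9.12, 6.68, 2.54 and 1.15 CPM, was higher under it. Myeloid markers, those of the cells that are the usual source of IL1B, summed to between 0.669 and 2.31 CPM over the 7 genes in all 12 libraries. One of them, CD68, had at most 17 reads in a group but stood at 18.7 to 27.9 FPKM in E5 FOLFIRINOX, 11.7 to 14.5 FPKM in E5 vehicle, 57.8 to 75.1 FPKM in control FOLFIRINOX and 6.44 to 8.07 FPKM in control vehicle libraries, so the 2 deposited tables disagree for this gene. The lymphoid sum was 0.0643 to 0.310 CPM in E5 FOLFIRINOX, 0.0850 to 0.267 CPM in E5 vehicle, 9.41 to 13.5 CPM in control FOLFIRINOX and 48.6 to 54.9 CPM in control vehicle libraries. In control cells it was nearly all PTPRC. In E5 cells CD79A had 7 reads under FOLFIRINOX and 4 under vehicle, against 2 and 2 of PTPRC. The T cell genes CD3E and CD2 were at 0 in every group. Fibroblast markers, nearly all COL1A1, summed to 8.83 to 10.6 CPM in E5 FOLFIRINOX, 15.2 to 16.9 CPM in E5 vehicle, 3.23 to 3.62 CPM in control FOLFIRINOX and 4.15 to 4.57 CPM in control vehicle libraries. Endothelial markers, in E5 vehicle mostly CDH5, summed to 1.99 to 2.79, 6.69 to 7.14, 0.899 to 1.34 and 0.666 to 1.48 CPM in the same groups. Mast cell and basophil markers summed to 0.464 to 0.836, 0 to 0.535, 0.891 to 1.54 and 0.333 to 0.629 CPM. They were mostly KIT, at 0.694, 0.259, 1.22 and 0.495 CPM on average, and TPSAB1 and MS4A2 had 0 reads in every group. These sums, and CD68 in FPKM, move with the differences between E5 and control cells or between drug and vehicle below, and their part in those results was not tested.

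All 8 genes lie in a few places of the genome (GRCh38, coordinates from the deposited file). On chromosome 2 the receptor genes IL1R1 (ENSG00000115594, chr2:102064544-102179874) and IL1RL1 (ENSG00000115602, chr2:102311502-102352037) share a cluster of 6 receptor genes. The ligand genes IL1A (ENSG00000115008, chr2:112773925-112784493), IL1B (ENSG00000125538, chr2:112829751-112836816) and IL1RN (ENSG00000136689, chr2:113107214-113134016) share a cluster of 9 ligand genes. IL1RAP is on chromosome 3 (ENSG00000196083, chr3:190514051-190659750), IL33 on chromosome 9 (ENSG00000137033, chr9:6215786-6257983) and IL18 on chromosome 11 (ENSG00000150782, chr11:112143253-112164096). The gene model of IL18R1, a subunit of the interleukin-18 receptor, overlaps 99.9% of the span of IL1RL1 on the same strand. Reads in exons that both genes hold count as ambiguous, so the split of reads between IL1RL1 and IL18R1 is uncertain, and counts per gene do not separate the membrane form of IL1RL1 from its soluble form.

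The start regions of the 3 genes that the drug contrasts turn on are shown next, from 250 bases before to 50 bases after an annotated start (RefSeq, GRCh38.p14). Capitals mark matches, on either strand, to the AP-1 motif TGANTCA or to the TATA motif TATAAA.
IL1A, chr2:112784444-112784743, minus strand: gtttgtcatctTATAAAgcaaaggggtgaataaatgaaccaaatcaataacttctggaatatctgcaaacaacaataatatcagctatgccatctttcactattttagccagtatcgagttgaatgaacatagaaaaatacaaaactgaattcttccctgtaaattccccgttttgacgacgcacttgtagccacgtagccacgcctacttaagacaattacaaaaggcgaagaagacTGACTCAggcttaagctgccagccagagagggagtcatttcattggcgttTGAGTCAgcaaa
IL1B, chr2:112836730-112837029, minus strand: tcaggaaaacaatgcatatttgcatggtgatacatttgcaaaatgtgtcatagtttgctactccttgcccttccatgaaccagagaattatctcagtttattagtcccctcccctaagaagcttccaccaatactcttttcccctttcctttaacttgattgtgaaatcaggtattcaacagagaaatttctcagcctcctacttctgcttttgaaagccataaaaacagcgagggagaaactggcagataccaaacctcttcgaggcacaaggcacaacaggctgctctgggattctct
IL1RL1, later start, chr2:102337007-102337306, plus strand: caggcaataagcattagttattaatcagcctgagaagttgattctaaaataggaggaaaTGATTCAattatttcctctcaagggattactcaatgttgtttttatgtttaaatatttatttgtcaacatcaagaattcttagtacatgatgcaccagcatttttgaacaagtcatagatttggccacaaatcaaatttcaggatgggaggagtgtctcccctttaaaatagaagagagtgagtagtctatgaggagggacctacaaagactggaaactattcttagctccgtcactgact
IL1RL1, earlier start, chr2:102311313-102311612, plus strand: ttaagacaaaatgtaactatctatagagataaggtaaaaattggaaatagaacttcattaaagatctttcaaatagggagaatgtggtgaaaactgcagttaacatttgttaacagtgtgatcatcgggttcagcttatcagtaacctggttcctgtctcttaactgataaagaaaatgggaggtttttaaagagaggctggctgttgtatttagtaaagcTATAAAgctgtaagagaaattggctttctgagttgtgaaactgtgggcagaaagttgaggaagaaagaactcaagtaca
The IL1A window shown held 2 AP-1 matches, beginning 12 bases before and 38 bases after the start, and 1 TATA match 239 bases before it. Another annotated IL1A start, not shown, had 2 AP-1 matches and 0 TATA matches. The later IL1RL1 start held 1 AP-1 match, and the earlier one held 1 TATA match. The IL1B window held none of these letters, and none of the 4 windows shown matched the NF-kB motif, which was also searched on both strands. Of all 35116 RefSeq start regions of this length, 7.71% held the AP-1 letters, 11.5% the TATA letters and 5.91% the NF-kB motif. A match in this window is a description of letters and not a binding site.

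Under FOLFIRINOX both interleukin-1 ligands stood above vehicle in each kind of cell, while IL18, the most abundant ligand, stood below it. For IL1A the E5 FOLFIRINOX libraries had 8.83, 8.54 and 9.90 CPM, against 4.01, 4.02 and 2.72 CPM in E5 vehicle libraries. Control FOLFIRINOX libraries had 2.57, 1.44 and 2.12 CPM of IL1A, against 0.333, 0.286 and 0.0571 CPM in control vehicle libraries, which come from only 3, 6 and 1 reads. The groups did not overlap within either kind of cell, and the log2 fold change was 1.34 ± 0.19 (SE, n = 3 each) in E5 cells and 3.13 ± 0.41 in control cells.

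IL1B, the form that caspase-1 matures, ran in the same order. Its level was 15.6, 15.3 and 14.1 CPM in E5 FOLFIRINOX libraries, against 7.09, 8.98 and 7.90 CPM in E5 vehicle libraries. In control cells it was 1.67, 2.48 and 2.34 CPM under FOLFIRINOX, against 0.222, 0.286 and 0.286 CPM under vehicle. Again no library of one treatment reached the other, with log2 fold changes of 0.89 ± 0.11 (SE, n = 3 each) in E5 cells and 3.01 ± 0.28 in control cells. In all of these bulk libraries more cells making an RNA and more RNA per cell cannot be told apart.

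IL18, a ligand that epithelial cells commonly hold as a stored precursor, had 56.5, 54.5 and 58.1 CPM in E5 FOLFIRINOX libraries, against 90.3, 96.7 and 95.6 CPM in E5 vehicle libraries. Control FOLFIRINOX libraries had 109.6, 98.3 and 112 CPM, against 173.6, 168 and 171 CPM in control vehicle libraries. Every FOLFIRINOX library lay below every vehicle library of its kind of cell, and the log2 fold change was -0.74 ± 0.065 (SE, n = 3 each) in E5 cells and -0.68 ± 0.063 in control cells.

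IL33, a nuclear alarmin, was close to the counting limit. It summed to 12 reads in E5 FOLFIRINOX, 15 in E5 vehicle, 3 in control FOLFIRINOX and 0 in control vehicle libraries. The ratio of E5 FOLFIRINOX to E5 vehicle was 0.574, with an exact 95% counting interval from 0.245 to 1.31 that includes no difference. Of the 15 reads 10 came from E5 vehicle library 2, without which the ratio was 0.943. The antagonist IL1RN had 3 reads in E5 FOLFIRINOX, 1 in E5 vehicle and 0 in both control groups. A count of 0 over 3 libraries allows up to 0.0653 CPM in control FOLFIRINOX and 0.0632 CPM in control vehicle cells, and such intervals and limits cover counting error only. IL33 and IL1RN did not pass the filter on low counts, so 6 of the 8 genes were fitted.

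**Figure D1:**
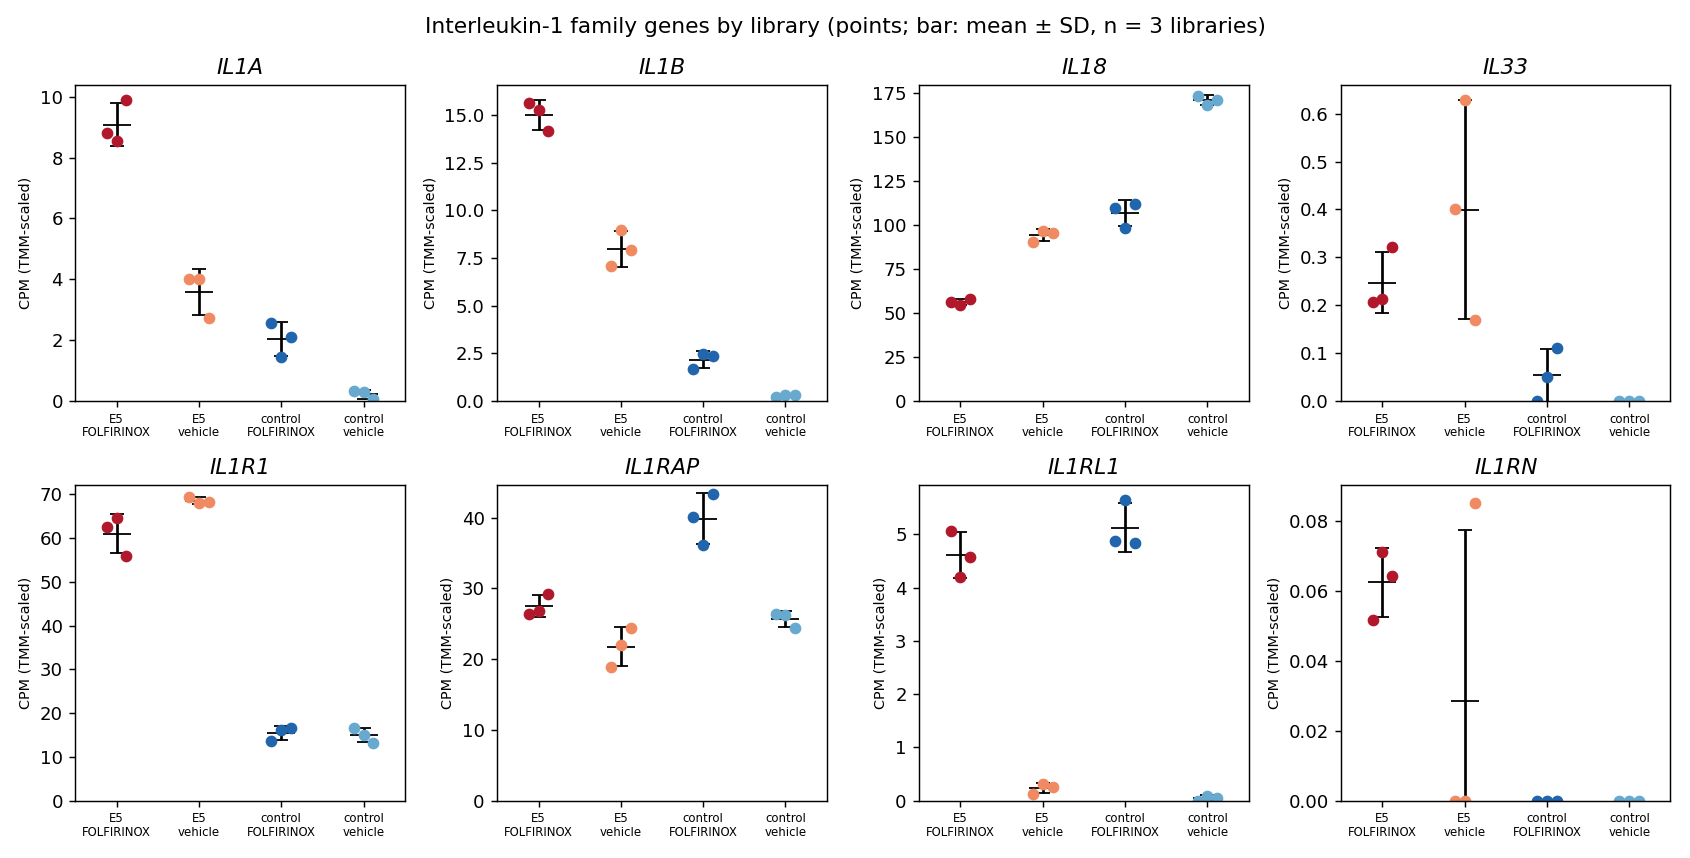
Levels of the 8 interleukin-1 family genes in CPM (vertical axis, own linear scale in each panel) for 3 libraries of each group, shown as points, with a horizontal line for the mean and error bars for the SD (n = 3). IL1A and IL1B were highest in E5 FOLFIRINOX libraries, at 8.54 to 9.90 CPM and 14.1 to 15.6 CPM, and IL1RL1 was above 4 CPM in all FOLFIRINOX libraries alone.

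The receptor genes behaved apart from one another under the drug. IL1RL1, the receptor of interleukin-33, had 5.06, 4.20 and 4.56 CPM in E5 FOLFIRINOX libraries, against 0.134, 0.314 and 0.255 CPM in E5 vehicle libraries. In control cells it had 4.88, 5.65 and 4.84 CPM under FOLFIRINOX, against 0, 0.0954 and 0.0571 CPM under vehicle. The vehicle libraries of both kinds of cell thus held 1 to 5 and 0 to 2 reads of it, and all 6 FOLFIRINOX libraries held 38 or more. The fitted log2 fold change in E5 cells was 4.14 ± 0.28 (SE, n = 3 each). In control cells, with 239 reads under FOLFIRINOX against 3 under vehicle, the ratio was 82.3, with an exact 95% counting interval from 27.8 to 402. Of those 3 reads 2 came from control vehicle library 2, without which the ratio was 138 and the fitted log2 fold change 6.80, against 6.18 with it.

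IL1RAP, the subunit that the interleukin-1 and interleukin-33 receptors share, had 26.4, 26.7 and 29.2 CPM in E5 FOLFIRINOX libraries, against 18.9, 22.0 and 24.4 CPM in E5 vehicle libraries. It had 40.1, 36.2 and 43.3 CPM in control FOLFIRINOX libraries, against 26.4, 26.2 and 24.3 CPM in control vehicle libraries. Neither pair of groups overlapped, with log2 fold changes of 0.32 ± 0.097 (SE, n = 3 each) in E5 cells and 0.64 ± 0.092 in control cells. The E5 difference came to 0.25 without E5 vehicle library 1 and to 0.17 on log2(FPKM + 1) and 0.19 on log2(FPKM + 0.1) values, where it was no longer called.

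IL1R1, the signalling receptor for interleukin-1 alpha and beta, differed little by drug. E5 FOLFIRINOX libraries had 62.4, 64.5 and 56.0 CPM, against 69.4, 68.0 and 68.3 CPM in E5 vehicle libraries. Control FOLFIRINOX libraries had 13.7, 16.2 and 16.6 CPM, against 16.7, 15.1 and 13.3 CPM in control vehicle libraries. In E5 cells the drug libraries lay below the vehicle libraries, with a log2 fold change of -0.17 ± 0.081 (SE, n = 3 each), and in control cells the groups overlapped, with 0.08 ± 0.099.

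Of the 6 fitted genes 4 were called higher, 1 lower and 1 neither way in E5 cells, where 25% of all 15636 tested genes were called higher and 27.3% lower at an adjusted p under 0.05. The counts were also 4, 1 and 1 in control cells, where 32.6% of all tested genes were called higher and 32.7% lower. Their median log2 fold change was 0.60 in E5 cells, against 0.0034 over all tested genes, and 1.82 in control cells, against 0.0044. Since these contrasts chose the genes, and IL1RL1, IL1A and IL1B passed the filter through groups in which they are high, nothing is read from these counts and medians.

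E5 cells carried more RNA of both interleukin-1 ligands and of the receptor subunit IL1R1 than control cells, under vehicle and under FOLFIRINOX, and less IL18. Results of these comparisons were also known when the genes were chosen, so the adjusted p-values, taken over all 15636 genes, are not independent support. IL1A and IL1B passed the filter on low counts through groups other than control vehicle, so their vehicle comparison is given without p-values. IL1RL1 passed it through the FOLFIRINOX groups, so its adjusted p under vehicle is a description only. Under vehicle IL1A averaged 3.58 ± 0.748 CPM in E5 cells and 0.225 ± 0.148 CPM in control cells (SD, n = 3 each), a log2 fold change of 4.03 ± 0.37 (SE). IL1B averaged 7.99 ± 0.947 CPM in E5 vehicle cells and 0.265 ± 0.0368 CPM in control vehicle cells, which differed by 4.85 ± 0.22 on the log2 scale. For both ligands the lowest E5 vehicle library was above the highest control vehicle library, and the control mean rests on 10 reads of IL1A and 13 reads of IL1B in all.

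The ligands also rose in E5 cells relative to control cells when both were given the drug. IL1A averaged 9.09 ± 0.719 CPM in E5 FOLFIRINOX cells and 2.04 ± 0.570 CPM in control FOLFIRINOX cells (SD, n = 3 each), with a log2 fold change of 2.24 ± 0.20 (edgeR adjusted p = 5.48e-08). IL1B averaged 15.0 ± 0.783 CPM in E5 FOLFIRINOX cells and 2.16 ± 0.432 CPM in control FOLFIRINOX cells, with 2.72 ± 0.13 (edgeR adjusted p = 2.83e-11). The level of both ligands in E5 cells without drug was above that in control cells with drug in every library, at 2.72 to 4.02 CPM against 1.44 to 2.57 CPM for IL1A and 7.09 to 8.98 CPM against 1.67 to 2.48 CPM for IL1B.

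IL1R1 averaged 68.6 ± 0.740 CPM in E5 vehicle cells and 15.0 ± 1.70 CPM in control vehicle cells (SD, n = 3 each), a log2 fold change of 2.21 ± 0.091 (edgeR adjusted p = 3.11e-12). Under FOLFIRINOX it averaged 61.0 ± 4.45 CPM in E5 cells and 15.5 ± 1.54 CPM in control cells, a log2 fold change of 1.95 ± 0.090 (edgeR adjusted p = 1.26e-11). Its partner IL1RAP did not follow it. IL1RAP averaged 21.7 ± 2.77 CPM in E5 vehicle cells and 25.7 ± 1.15 CPM in control vehicle cells, overlapping groups that did not pass the test (log2 fold change -0.22 ± 0.098, edgeR adjusted p = 0.0759), although they passed it at -0.31 without E5 vehicle library 3. Under FOLFIRINOX IL1RAP was lower in E5 than in control cells, with 27.5 ± 1.56 CPM in E5 cells and 39.8 ± 3.58 CPM in control cells (log2 fold change -0.54 ± 0.091, edgeR adjusted p = 9.05e-05).

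IL1RL1 did not pass the test between the kinds of cell. Under FOLFIRINOX the groups overlapped at 4.61 ± 0.432 CPM in E5 cells and 5.12 ± 0.454 CPM in control cells (SD, n = 3 each), a log2 fold change of -0.16 ± 0.14 (edgeR adjusted p = 0.368). On log2(FPKM + 1) values that difference was -0.28 and passed. Under vehicle 9 reads in E5 cells stood against 3 in control cells, a ratio of 4.05 with an exact 95% counting interval from 1.01 to 23.3 (edgeR adjusted p = 0.0506), and this difference lay on either side of the threshold over 19 alternatives, with an adjusted p between 0.0422 and 0.612. The fitted log2 fold change of 1.88 ± 0.69 passed at 1.89 with RLE size factors, at 2.06 without E5 vehicle library 1, at 1.89 without E5 FOLFIRINOX library 3, and at 1.88 and 1.89 without control FOLFIRINOX library 2 or 3. Without control vehicle library 2 the ratio was 6.78.

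IL18 was lower in E5 cells under both treatments. It averaged 94.2 ± 3.43 CPM in E5 vehicle cells and 171 ± 2.63 CPM in control vehicle cells (SD, n = 3 each), and fell by 0.86 on the log2 scale (SE 0.063, edgeR adjusted p = 6.09e-09). With FOLFIRINOX it averaged 56.4 ± 1.82 CPM in E5 cells and 106.7 ± 7.38 CPM in control cells, and fell by 0.92 (SE 0.065, edgeR adjusted p = 3.02e-09). IL33 had 15 reads in E5 vehicle against 0 in control vehicle cells. Taking 3 reads over the group as the limit of a count of 0, the lower bound of the ratio was 6.75. This bound leaves out the counting error of the 15 reads. It was 4.11 without E5 vehicle library 2, which held 10 of the 15 reads. Without control vehicle library 2 it was 3.77, and without control vehicle library 3 it was 4.26, with 0 control reads in each case. With the drug its ratio of E5 to control cells was 3.75, from 12 reads against 3, with an exact 95% counting interval from 1.01 to 20.7, and 6.85 without control FOLFIRINOX library 3.

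Under vehicle 3 of the 6 fitted genes were called higher in E5 cells, 1 lower and 2 neither way, where 22.1% of all tested genes were called higher and 22.2% lower. Under FOLFIRINOX the counts were 3, 2 and 1, where 26.7% of all tested genes were called higher and 27.6% lower. Their median log2 fold change was 2.04 under vehicle, against -0.0089 over all tested genes, and 0.90 under FOLFIRINOX, against -0.012. IL1A, IL1B and IL1RL1 passed the filter through groups in which they are high, so nothing is read from these counts and medians either.

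**Figure D2:**
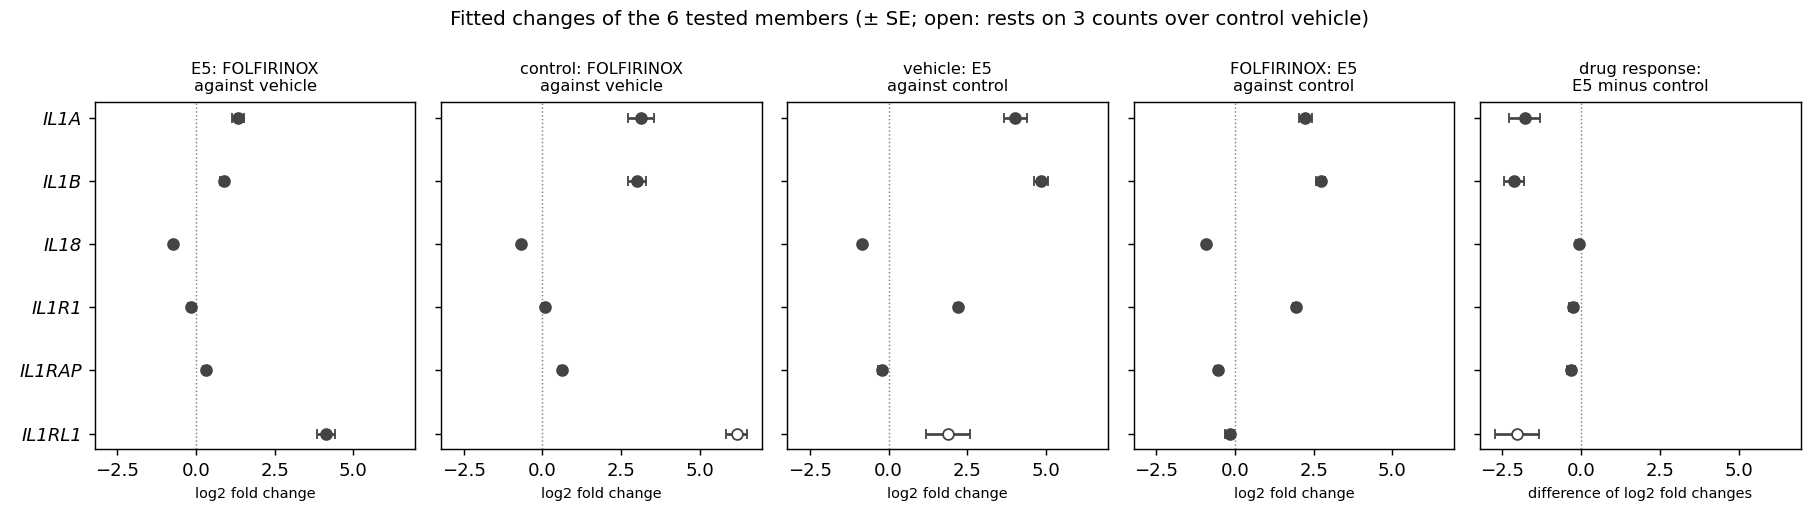
Log2 fold changes (horizontal axis) of the 6 fitted genes (rows), with SE bars, in 1 panel for each comparison, and in the last panel the difference of the drug responses. Open points rest on 3 reads over the control vehicle libraries. IL1R1 was changed between E5 and control cells, at 2.21 under vehicle and 1.95 under FOLFIRINOX, and little by the drug, at -0.17 in E5 and 0.08 in control cells.

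In fold, the drug response of both ligands was smaller in E5 than in control cells, while their gain in level was larger. The difference is made of the drug contrasts on which the genes were selected, so it is a description and carries no p-value. The log2 fold change of E5 cells minus that of control cells was -1.79 ± 0.49 (SE) for IL1A and -2.13 ± 0.32 for IL1B. FOLFIRINOX minus vehicle was 5.50 CPM in E5 cells and 1.81 CPM in control cells for IL1A, and 7.03 CPM in E5 cells and 1.90 CPM in control cells for IL1B. On log2(FPKM + 1) values, which damp the folds of low levels, the difference turned to 0.17 for IL1A and shrank to -0.13 for IL1B. For IL1A it was -1.06 on log2(FPKM + 0.1) values, and -1.29 without control vehicle library 3, which held 1 read of it.

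For IL1RL1, whose fitted fold in control cells rests on 3 vehicle reads, the difference of log2 fold changes was -2.04 ± 0.71 (SE), and its gain in level was 4.37 CPM in E5 cells and 5.07 CPM in control cells. The difference was -0.31 ± 0.13 for IL1RAP, -0.25 ± 0.13 for IL1R1 and -0.06 ± 0.090 for IL18. Of the 6 genes 0 were called with a larger fold in E5 cells and 2 with a smaller one, where 13.3% of all tested genes had a larger and 12.4% a smaller one. Their median difference was -1.05, against 0.0062 over all tested genes. Nothing is read from these counts and medians, for the reasons given for the drug contrasts.

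Between genes, levels are compared in FPKM, which the authors scaled by gene length. IL18 was first in every group, with 50.4 ± 2.17 FPKM in E5 FOLFIRINOX, 80.7 ± 1.10 in E5 vehicle, 99.4 ± 5.86 in control FOLFIRINOX and 143 ± 1.83 FPKM in control vehicle cells (SD, n = 3 each). In E5 FOLFIRINOX cells it was followed by IL1R1 at 12.7 FPKM, IL1B at 9.90 FPKM, IL1RAP at 6.41 FPKM, IL1A at 4.13 FPKM and IL1RL1 at 2.10 FPKM. These neighbours did not overlap over the 3 libraries. E5 vehicle cells had IL1R1 at 13.8 FPKM, then IL1RAP at 5.60 FPKM and IL1B at 5.13 FPKM, which overlapped, then IL1A at 1.61 FPKM.

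In control FOLFIRINOX cells IL1RAP came next after IL18 at 10.0 FPKM, then IL1R1 at 3.83 FPKM, IL1RL1 at 2.75 FPKM, IL1B at 1.47 FPKM and IL1A at 0.963 FPKM, without overlap between neighbours. Control vehicle cells had IL1RAP at 6.48 FPKM and IL1R1 at 3.32 FPKM, while IL1B at 0.26 FPKM and IL1A at 0.107 FPKM overlapped. IL1R1 thus stood above IL1RAP in E5 cells and below it in control cells, in FPKM and in every library of each kind. IL1B stood above IL1A in the mean of all 4 groups. IL33 stayed between 0 and 0.34 FPKM and IL1RN between 0 and 0.13 FPKM in all 12 libraries.

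Neighbours in the chromosome 2 clusters were mostly silent. Of the other family ligands 0 of 6 passed the filter, and IL37, a ligand that dampens inflammation, had the most reads with 11 in E5 FOLFIRINOX, 4 in E5 vehicle and 0 in both control groups. In the receptor cluster IL18R1, which overlaps IL1RL1, averaged 12.2 ± 1.18 CPM in E5 FOLFIRINOX, 4.41 ± 0.466 in E5 vehicle, 4.24 ± 0.402 in control FOLFIRINOX and 0.898 ± 0.201 CPM in control vehicle cells (SD, n = 3 each). It rose with the drug in E5 cells by a log2 fold change of 1.45 ± 0.13 (edgeR adjusted p = 1.89e-07) and in control cells by 2.27 ± 0.21 (edgeR adjusted p = 5.23e-08). Unlike IL1RL1, it was also higher in E5 FOLFIRINOX than in control FOLFIRINOX cells, by 1.53 ± 0.13 (edgeR adjusted p = 3.46e-08), although whether the 2 genes differ in that contrast was not tested.

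**Figure D3:**
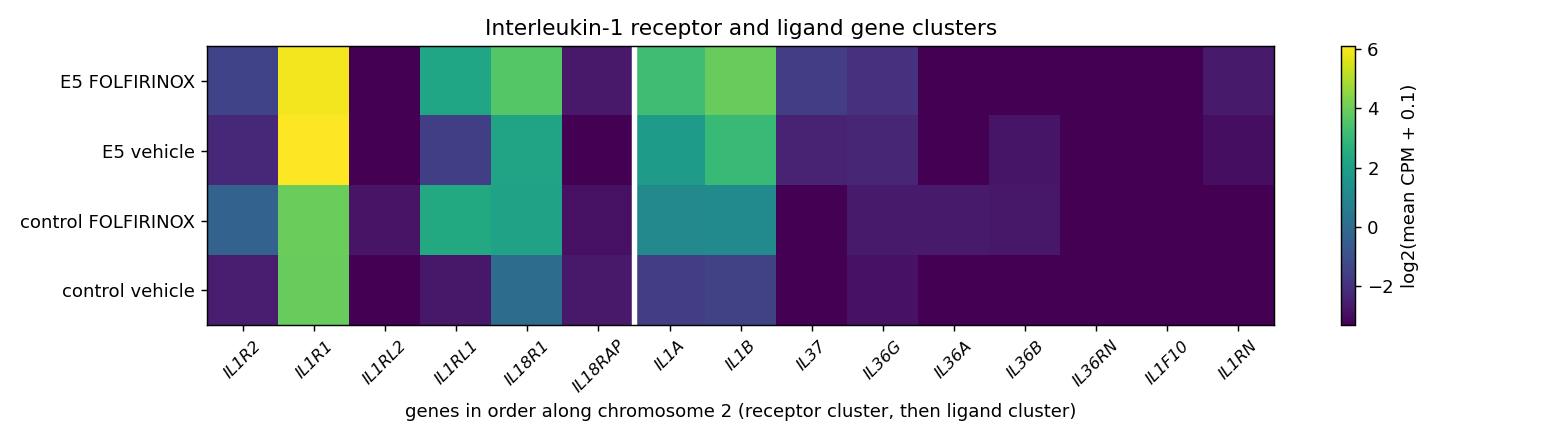
Colour map of log2(mean CPM + 0.1) for the genes of the chromosome 2 receptor cluster (left of the white line) and ligand cluster (right), in chromosome order, with 1 row for each group of 3 libraries. IL1R1, IL1RL1 and IL18R1 carried the receptor signal and IL1A and IL1B the ligand signal, and the genes between IL1B and IL1RN had at most 11 reads in a group.

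The genes of the wider pathway came from lists drawn from general knowledge with results of these data known. Counts and medians of these lists are therefore a description and no independent support. Of 25 genes for the maturation and release of interleukin-1, 20 were tested. AIM2 had 78 reads in E5 FOLFIRINOX, 15 in E5 vehicle, 4 in control FOLFIRINOX and 0 in control vehicle libraries. It passed the filter through E5 FOLFIRINOX, and NLRP3 passed it through control FOLFIRINOX. Nothing is therefore read from this list's counts and medians, here or in the next paragraph. Between E5 and control cells under vehicle 9 rose, 4 fell and 7 did not pass (median log2 fold change 0.14), where 22.1% of all tested genes rose and 22.2% fell. CASP1, the protease that cuts the precursors of IL1B and IL18, averaged 14.6 ± 0.743 CPM in E5 vehicle cells and 1.24 ± 0.299 CPM in control vehicle cells (SD, n = 3 each), a log2 fold change of 3.49 ± 0.14 (edgeR adjusted p = 3.2e-12). Under FOLFIRINOX it averaged 11.8 ± 0.574 CPM in E5 cells and 1.50 ± 0.0863 CPM in control cells, a log2 fold change of 2.95 ± 0.14 (edgeR adjusted p = 2.08e-11). CARD16, whose sequence is close to part of CASP1 so that reads may be split between them, rose by 2.59 ± 0.27 under vehicle (edgeR adjusted p = 4.07e-07). CASP4, which senses bacterial lipopolysaccharide inside cells, rose by 1.19 ± 0.075 under vehicle (edgeR adjusted p = 7.23e-10).

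NLRP3, the sensor of the best known caspase-1 inflammasome, ran the other way. It had 14 reads in E5 FOLFIRINOX, 3 in E5 vehicle, 162 in control FOLFIRINOX and 22 in control vehicle libraries. NLRP3 passed the filter through control FOLFIRINOX, so its differences are given without p-values. It averaged 0.301 ± 0.137 CPM in E5 FOLFIRINOX cells and 3.48 ± 0.245 CPM in control FOLFIRINOX cells (SD, n = 3 each), a log2 fold change of -3.58 ± 0.29. In control cells it rose with the drug by 2.90 ± 0.27. PYCARD, a gene of the same list, had 0 reads and 0 FPKM in all 4 groups and was not tested. Under FOLFIRINOX 12 genes of this list were higher in E5 than in control cells, 4 lower and 4 neither way (median 0.33), where 26.7% of all tested genes were higher and 27.6% lower. With the drug 3 rose and 10 fell in E5 cells (median -0.25), where 25% of all tested genes rose and 27.3% fell. In control cells 5 rose and 9 fell (median 0.06), where 32.6% of all tested genes rose and 32.7% fell. GSDMD, whose cut form makes the pores that release IL1B, fell with the drug in E5 cells to 13.4 ± 1.23 CPM, against 24.5 ± 1.04 CPM under vehicle (log2 fold change -0.85 ± 0.094, edgeR adjusted p = 1.17e-06), and in control cells by 0.91 on the log2 scale (SE 0.11, edgeR adjusted p = 1.1e-06). CAPN1, a subunit of the calpain that cuts the IL1A precursor, also fell in both, by 0.89 in E5 cells (edgeR adjusted p = 1.42e-07) and by 1.09 in control cells (edgeR adjusted p = 5.88e-09) on the log2 scale.

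Of 8 further receptor and decoy genes 4 were tested. IL18BP, a secreted trap for interleukin-18, averaged 19.3 ± 3.10 CPM in E5 vehicle cells and 6.40 ± 0.468 CPM in control vehicle cells (SD, n = 3 each), a log2 fold change of 1.55 ± 0.14 (edgeR adjusted p = 7.36e-08). It was also higher under FOLFIRINOX, by 1.35 ± 0.15 (edgeR adjusted p = 9.5e-07), so that in these cells the trap was higher and IL18 lower under both treatments. Within E5 cells it fell with the drug by 0.70 on the log2 scale (SE 0.13, edgeR adjusted p = 2e-04). It also fell in control cells, by 0.50 (SE 0.16, edgeR adjusted p = 0.0129), a call not kept under every alternative. The difference of these responses did not pass (edgeR adjusted p = 0.515). The decoy receptor IL1R2 summed to 13 reads in E5 FOLFIRINOX, 4 in E5 vehicle, 29 in control FOLFIRINOX and 4 in control vehicle libraries and did not pass the filter.

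Of 31 signalling genes 30 were tested. IRAK3 had 33 reads in E5 FOLFIRINOX, 5 in E5 vehicle, 45 in control FOLFIRINOX and 9 in control vehicle libraries. PELI2 had 42, 10, 37 and 7 in the same groups. Both passed the filter through FOLFIRINOX libraries, so nothing is read from the counts and medians of this list. E5 vehicle cells had 11 higher and 5 lower than control vehicle cells (median 0.18), where the shares of all tested genes were 22.1% and 22.2%. Under FOLFIRINOX the counts were 7 and 7 (median -0.01), near the 26.7% and 27.6% of all tested genes. With the drug 5 rose and 11 fell in E5 cells (median -0.11), beside 25% and 27.3% of all tested genes, and 9 rose and 11 fell in control cells (median -0.02), near 32.6% and 32.7%. MYD88, the adaptor of the interleukin-1 receptor, rose by 0.81 ± 0.076 in E5 vehicle relative to control vehicle cells (edgeR adjusted p = 1.44e-07). In E5 cells it fell with the drug, with 34.2 ± 1.31 CPM under FOLFIRINOX and 60.5 ± 5.72 CPM under vehicle (SD, n = 3 each, log2 fold change -0.81 ± 0.075, edgeR adjusted p = 1.78e-07). It also fell in control cells, by 0.57 on the log2 scale (SE 0.080, edgeR adjusted p = 8.39e-06), and the difference of these responses did not pass (edgeR adjusted p = 0.115). IRAK2, a kinase of the same complex, rose with the drug in E5 cells by 0.80 ± 0.064 (edgeR adjusted p = 3.44e-08) and in control cells by 0.90 ± 0.064 (edgeR adjusted p = 3.13e-09). PELI1, a ubiquitin ligase acting on IRAK proteins, rose with the drug in control cells by 0.89 ± 0.10 (edgeR adjusted p = 7.31e-07), and its response in E5 cells was smaller by 0.72 (SE 0.15, edgeR adjusted p = 0.00211).

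The 27 genes that interleukin-1 is known to induce included 17 that were tested. VCAM1, with 1 read in control vehicle, 8 in control FOLFIRINOX and 305 in E5 vehicle libraries, passed the filter through E5 cells. Nothing is therefore read from the counts and medians of this list, here or in the next paragraph. With the drug 6 rose and 2 fell in E5 cells (median -0.06), where 25% of all tested genes rose and 27.3% fell. In control cells 15 rose and 1 fell (median 1.38), where 32.6% of all tested genes rose and 32.7% fell. The difference of the responses was higher in 1 gene and lower in 12 (median -1.08), where 13.3% of all tested genes were higher and 12.4% lower. The 1 gene was SOD2. It rose with the drug by 1.19 ± 0.072 in E5 cells (edgeR adjusted p = 1.76e-09) and by 0.52 ± 0.073 in control cells (edgeR adjusted p = 8.57e-06). Its difference was 0.67 ± 0.10 (edgeR adjusted p = 0.000185). CXCL8, a chemokine for neutrophils, averaged 20.9 ± 0.979 CPM in E5 FOLFIRINOX and 14.1 ± 1.14 CPM in E5 vehicle cells (SD, n = 3 each), and 73.0 ± 3.53 CPM in control FOLFIRINOX and 8.84 ± 1.41 CPM in control vehicle cells. Its response was smaller in E5 cells by 2.53 on the log2 scale (SE 0.14, edgeR adjusted p = 7.43e-09), and unlike IL1B it also gained less in CPM there. CXCL1, CXCL2 and CXCL3, close relatives whose reads may be split among them, had smaller responses in E5 cells too, with differences of -2.16 ± 0.23, -1.65 ± 0.25 and -2.13 ± 0.38 (edgeR adjusted p at most 0.000719). BIRC3, an inhibitor of cell death, rose with the drug in both, by 1.64 ± 0.14 in E5 cells (edgeR adjusted p = 4.68e-08) and by 2.76 ± 0.14 in control cells (edgeR adjusted p = 5.95e-11).

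Between E5 and control cells under vehicle 15 of the 17 rose and 2 fell (median 1.01), where 22.1% of all tested genes rose and 22.2% fell. Under FOLFIRINOX 8 rose and 7 fell (median 0.19), where 26.7% of all tested genes rose and 27.6% fell. CCL2, a chemokine for monocytes, averaged 421 ± 16.8 CPM in E5 vehicle cells and 74.0 ± 2.43 CPM in control vehicle cells (SD, n = 3 each), a log2 fold change of 2.51 ± 0.074 (edgeR adjusted p = 4.09e-14). VCAM1, an adhesion protein, had 305 reads in E5 vehicle against 1 in control vehicle libraries, a ratio of 412 with an exact 95% counting interval from 73.3 to 16315. Without control vehicle library 1, which held that read, the lower bound of the ratio, against the limit of 3 reads, was 111. The ratio was 230 without control vehicle library 2 and 260 without library 3. PTGES, an enzyme of prostaglandin synthesis, averaged 1.48 CPM over all 12 libraries and rose by 3.36 ± 0.41. Like VCAM1, it passed the filter through E5 cells, so no p-value is given. The collagenase gene MMP1 fell by 3.35 on the log2 scale under vehicle (SE 0.16, edgeR adjusted p = 2.61e-11) and by 4.86 under FOLFIRINOX (SE 0.13, edgeR adjusted p = 1.14e-14), and CXCL5 fell by 3.18 under FOLFIRINOX (SE 0.20, edgeR adjusted p = 6.59e-10).

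**Figure D4:**
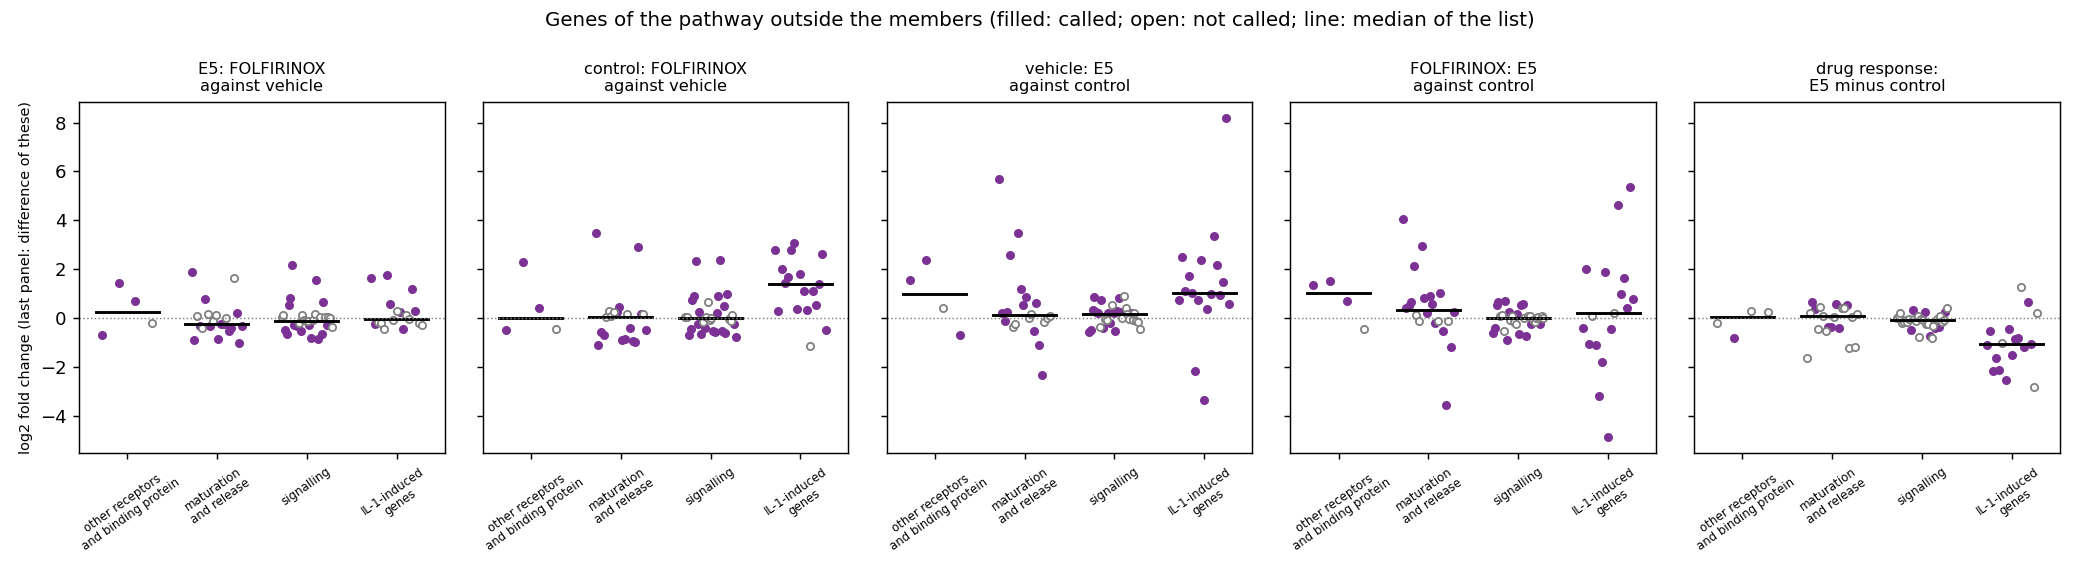
Log2 fold changes of the tested genes of 4 pathway lists, 1 point for each gene (filled where called, open where not) and a line at the list's median, in 1 panel for each comparison and 1 for the difference of the drug responses. In control cells 15 of 17 induced genes rose with the drug at a median of 1.38, and in E5 cells 6 of 17 did at a median of -0.06. The lists were drawn up with results of these data known, so nothing is read from these counts and medians.

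Across the 12 libraries the log2 CPM of IL1A and IL1B had a Pearson correlation of 0.956, and that of IL1A and IL18 was -0.946, values that mostly reflect the 4 group means that the libraries share. By the same measure, over 10264 protein-coding genes of at least 5 CPM, the genes most like IL1A were SLC41A2 (0.988), CLIP4 (0.982) and SHH (0.980), and those most like IL1B were SERPINE2 (0.996), FBXO32 (0.996) and TAP2 (0.995). IL1R1 was most like HLA-DRB1 (0.998), S1PR3 (0.996) and THBS1 (0.995). IL1RL1 was most like MPLKIP (0.992), PALM2AKAP2 (0.991) and C1orf109 (0.990), IL1RAP most like ZNF695 (0.990), ZNF782 (0.980) and NKAP (0.980), and IL18 most like KIFBP (0.996), MTHFD2 (0.993) and HMGB2 (0.989).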

How the data were processed

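Total RNA of KP4 cells was sequenced in 4 GEO samples, each with 3 numbered columns in the deposited tables, which were treated as 12 libraries in 4 groups. No sample column was left out. The tools Trimmomatic and STAR (2.5.1b) and the build GRCh38 are named in the submitters' processing notes. The authors deposited stranded read counts per gene, whole numbers without scaling as the values show, and FPKM values, which the authors scaled by gene length and depth with a program that the labels do not state. The deposited rlog values were not used here. Library sizes leave out the classes without a gene, namely multimapping (10.8 to 12.8% of reads), no feature (6.63 to 8.52%), ambiguous (2.86 to 3.20%) and unmapped (1.47 to 1.70%).

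Counts were fitted with edgeR 4.0.16 in R 4.3.3 over all 12 libraries (group means model, TMM scaling, filterByExpr, quasi-likelihood F test). This left 15636 genes, 12650 of them protein coding, with Benjamini-Hochberg adjustment over all of them and calls at an adjusted p under 0.05. SE is the log2 fold change divided by the root of F. The biological coefficient of variation was 7.37%, and pairs of libraries of a group differed by 1.42 to 13.0 times the counting variance. A count of 0 has a limit of 3 counts over the group, and groups with 1 to 3 counts get a ratio with an exact 95% counting interval. Pearson correlations used log2 CPM with a prior count of 2.

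The 8 members, the gene lists and the tests were chosen with earlier results of these data known. Named genes were the 8 members in every comparison and, per pathway list and comparison, up to 4 called genes, those changed most among genes averaging 1 CPM or more. For each fitted member they also included the 3 protein-coding genes of at least 5 CPM with the highest correlation. Of 73 such pairs of pathway gene and comparison, 64 kept their call under every alternative, and pairs of this kind are described. Some values lie outside this rule and were added after values were seen. These are GSDMD, MYD88, IL18BP and SOD2 in control cells and the response differences of MYD88, IL18BP and SOD2. The read sums of IL1R2, IL37, PYCARD, AIM2, IRAK3 and PELI2 are also of this kind. Alternatives were other size factors (RLE, total counts), no filter, DESeq2 1.42.0, limma 3.58.1 on log2(FPKM + 1) and log2(FPKM + 0.1), the compared groups alone, a replicate block and leaving out each library. Start regions came from the RefSeq table of GRCh38.p14, where 7 of 8 members had an entry.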

Additional observations from a re-analysis of the deposited data

Results flagged for a closer look

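The fitted responses of IL1A and IL1B to FOLFIRINOX differed between E5 and control cells, with both differences called over all tested genes. The log2 fold change in E5 cells minus that in control cells was -1.79 for IL1A (SE 0.49) and -2.13 for IL1B (SE 0.32). The genes were selected on the drug contrasts that make up these differences, and they passed the filter through the groups in which they are high, so the calls are no independent support and no p-value is given. The difference is one of folds, since the gain in CPM was larger in E5 cells for both genes.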

How the results depend on the processing

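Of 593 recomputed values of single members, 574 kept their direction and their side of the threshold, 6 lost a call, 12 gained one and 1 reversed, the difference of responses of IL1A at 0.17 on log2(FPKM + 1) values. Of 1445 such values of pathway genes 1396 held, 46 lost a call and 3 reversed: UBE2V1 in control cells at 0.10 on log2(FPKM + 1) and 0.10 on log2(FPKM + 0.1) values, and the difference of responses of IL18R1 at 0.25 on log2(FPKM + 1). The cause was not tested. The number of members whose responses differed was 2, but 4 with total counts, 0 on log2(FPKM + 1), 1 on log2(FPKM + 0.1) and between 1 and 4 when a library was left out. Total counts moved the median log2 fold change of all genes in control cells by the drug to 0.14, log2(FPKM + 1) to 0.14 and log2(FPKM + 0.1) to 0.19, and of all calls 60.8%, 66.9% and 66.9% were then higher, beside 5095 higher and 5109 lower ones. Between E5 and control FOLFIRINOX cells they were 40.2%, 35.4% and 35.9%, beside 4170 higher and 4318 lower, and for the difference of responses 39.6%, 26.5% and 27.4%, beside 2080 higher and 1933 lower, but without a filter on low counts it was 63.4%, from 2359 higher and 1364 lower. Replicate numbers did not pair the libraries, since 3 of 18 correlations of deviations exceeded 0.1 (-0.188 to 0.148). With a replicate block the counts of members called stayed at 5, 5, 4, 5 and 2, and VCAM1 in control cells lost its call at 2.63. Depth limits IL1RN and IL33, with at most 15 reads in a group, and IL1A, IL1B and IL1RL1 in control vehicle cells.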
